A study of Mus musculus with 8 samples.

Results

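The genes described here are 7 ADP-ribosyltransferase genes, *Parp1*, *Parp9*, *Parp10*, *Parp11*, *Parp12*, *Parp14* and *Tiparp*, together with *Dtx3l*, the ubiquitin ligase partner of PARP9. They were chosen by name, as the members of the family that are linked to interferon responses plus *Parp1*, and make up 8 of the 50615 genes in the table. All 8 were among the 17625 genes with at least 10 counts over the libraries, so none was lost to the filter on low counts. The measurements are RNA-seq counts from bone marrow-derived macrophages (BMDMs) of C57BL/6 mice, grown from marrow for 6 days in M-CSF at 20 ng/ml. The 4 groups, each of 2 libraries from different mice, cross genotype with culture condition. Ncoa6-KO BMDMs came from mice with both floxed *Ncoa6* alleles and a Cre driven from the lysozyme M locus (Ncoa6 fl/fl LysM CRE), and Ncoa6-sufficient BMDMs, labelled WT, carried the floxed alleles alone. Each genotype was kept in medium alone or primed with 100 ng/ml of LPS (4 h) before monosodium urate crystals (MSU) were added at 200 µg/ml for 2 h, written LPS + MSU. The Cre allele and the loss of *Ncoa6* were always together and cannot be told apart, and LPS and MSU were given only in sequence, so their parts cannot be told apart either.

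ADP-ribosyltransferases move ADP-ribose from NAD onto proteins or nucleic acids. PARP1 builds poly(ADP-ribose) chains at damaged DNA, whereas PARP10, PARP11, PARP12, PARP14 and TIPARP (also called PARP7) attach single ADP-ribose units, and PARP9 works in a complex with DTX3L. In macrophages, bacterial lipopolysaccharide (LPS) induces interferon-β, which signals through its receptor to the interferon-stimulated genes, and several PARP genes are known members of that group. *Ncoa6* encodes a coactivator of nuclear receptors and other transcription factors.

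Library totals ran from 25281955 to 33673552 counts. With medium alone *Ncoa6* itself stood at 1515 and 1405 normalized counts in Ncoa6-sufficient against 784 and 622 in Ncoa6-KO libraries, so that 48.2% was left (adjusted p = 0.00236 by edgeR's quasi-likelihood test). With LPS + MSU 44.1% was left (adjusted p = 0.00189 by the same test). The *Ncoa6* counts cover the whole gene, including exons outside the floxed part. These percentages therefore do not measure how much intact *Ncoa6* transcript remained. All 8 macrophage markers checked were present in every group. Their summed level with medium alone was 13250 and 15550 CPM (counts per 1000000 of effective library size) in Ncoa6-sufficient against 8487 and 9819 in Ncoa6-KO libraries, with *Lyz2*, whose locus holds the Cre, *Fcgr1* and *Cd14* called lower. *Lyz2* alone made up 54.0% to 59.7% of the sum in those Ncoa6-sufficient libraries, and the other 7 markers summed to 6097 and 6274 CPM against 4669 and 5470 CPM. With LPS + MSU the sums were 17320 and 19700 CPM against 12510 and 13410 CPM, or 9908 and 10480 against 8308 and 9001 CPM without *Lyz2*, with *Lyz2*, *Fcgr1* and *Itgam* called lower. The defining T cell genes *Cd3g*, *Cd8a* and *Trbc2* had no counts in any library, and the 5 T cell markers together reached at most 0.0945 CPM. Summed levels reached at most 1.71 CPM for 5 B cell, 20.2 CPM for 7 neutrophil, 9.44 CPM for 6 dendritic cell and 35.8 CPM for 6 stromal or endothelial markers. The stromal or endothelial sum with medium alone was 14.02 and 13.37 CPM in Ncoa6-sufficient and 4.645 and 15.09 CPM in Ncoa6-KO libraries. The part of these markers in the results on the PARP genes was not tested.

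Normalized counts are counts divided by each library's effective size, from the trimmed mean of M-values (TMM), and scaled to the mean effective size of the 8 libraries. Calls were made where the Benjamini-Hochberg adjusted p, taken over all 17625 genes, was under 0.05. Between genes, normalized levels were compared only per kb of annotated exon. Ranks, shares and ratios of counts were not scaled for length.

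*Parp9*, *Dtx3l* and *Parp14* lie side by side on chromosome 16 (GRCm38). *Parp14* spans 35832874 to 35871544 on the minus strand and *Dtx3l* 35926511 to 35939151 on the minus strand, 55.0 kb further on. *Parp9* spans 35938470 to 35972605 on the plus strand, so its start and that of *Dtx3l* overlap head to head by 682 bp, of which 458 bp are exonic in both. The libraries were stranded, but the strand setting of the counting is not given in the sources used here. Expected counts of both genes were fractional and summed to a whole number in each library, as where reads are shared out between them. The part of this sharing in their separate values and in their ratio was not tested. The other members lie apart, *Parp10* on chromosome 15 (76231174 to 76243441, minus), *Parp11* on chromosome 6 (127446840 to 127494261, plus), *Parp12* on chromosome 6 (39086410 to 39118349, minus), *Tiparp* on chromosome 3 (65528410 to 65555518, plus) and *Parp1* on chromosome 1 (180568924 to 180601254, plus). *Parp10* shares 205 exonic bp on the same strand with *Plec*.

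RefSeq promoter windows of GRCm38.p6, 250 bases before to 50 after a transcript start, were matched for 5 of the 8 genes, *Parp1*, *Parp11*, *Parp12*, *Dtx3l* and *Tiparp*. Since most members moved together with LPS + MSU, the last 125 bases before the start are shown for a pair of genes that rose and for *Parp1*, which fell. Capitals mark matches, on either strand, to 4 motifs searched: the interferon-stimulated response element GAAANNGAAA, the gamma-activated site TTCNNNGAA, the NF-kB site GGGNNTTTCC and the xenobiotic response element core GCGTG.
Parp11, chr6:127446715-127446839, plus strand: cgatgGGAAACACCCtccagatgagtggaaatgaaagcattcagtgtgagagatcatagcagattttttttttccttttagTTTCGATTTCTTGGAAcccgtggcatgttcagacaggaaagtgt
Parp12, chr6:39118350-39118474, minus strand: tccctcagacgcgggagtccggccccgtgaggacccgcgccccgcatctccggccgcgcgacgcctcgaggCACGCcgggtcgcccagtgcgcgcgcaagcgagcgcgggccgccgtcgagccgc
Parp1, chr1:180568766-180568890, plus strand: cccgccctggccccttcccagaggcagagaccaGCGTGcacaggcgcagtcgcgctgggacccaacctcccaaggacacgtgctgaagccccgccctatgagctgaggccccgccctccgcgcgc
In *Parp11* the long run of capitals holds an interferon-stimulated response element on the reverse strand, bases -44 to -35 from the start, which overlaps a gamma-activated site at -37 to -29. The shorter run, -120 to -111, is an NF-kB match on the reverse strand. Of the 6 windows of the members (2 of them at *Parp11*), this one alone held any of those 3 motifs. Among all 32851 windows, 3.44% held the interferon-stimulated response element, 8.30% the gamma-activated site and 1.63% the NF-kB site. The xenobiotic response element core, through which the aryl hydrocarbon receptor binds, was in 5 of the 6 windows of the members and in 32.4% of all windows. A match is a run of letters and does not show that a factor binds there.

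LPS + MSU raised 7 of the 8 genes in both genotypes and lowered *Parp1*. In Ncoa6-sufficient BMDMs the increases ran from 2.77 (*Dtx3l*) to 3.96 (*Parp14*) on the log2 scale, and in Ncoa6-KO BMDMs from 2.80 (*Tiparp*) to 4.67 (*Parp14*). Broad changes accompanied them, since 24.7% of all genes tested were called higher and 30.5% lower with LPS + MSU in Ncoa6-sufficient BMDMs, and 25.2% and 27.9% in Ncoa6-KO BMDMs. The median over all genes was -0.12 in the former and -0.07 in the latter. The 8 members had medians of 3.13 and 3.30.

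**Figure D1:**
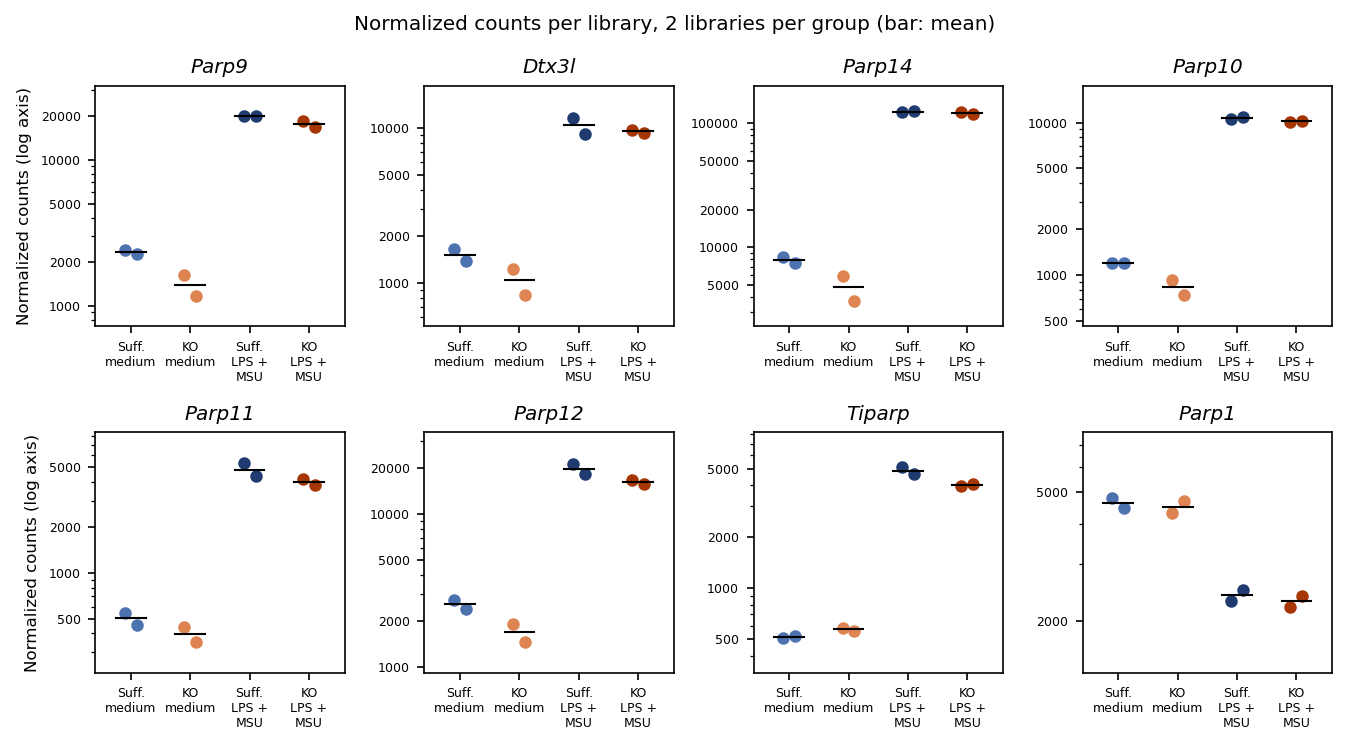
Normalized counts (log axis, scale set for each gene) of the 8 genes in each of the 8 libraries; points are libraries, 2 per group, and bars are group means. With LPS + MSU, 7 genes sit far above their levels with medium alone in both genotypes and *Parp1* sits below; with medium alone, both Ncoa6-KO points lie below both Ncoa6-sufficient points for *Parp9*, *Dtx3l*, *Parp14*, *Parp10*, *Parp11* and *Parp12*.

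*Parp9* encodes a catalytically limited member whose macrodomains bind ADP-ribose. With medium alone it was at 2406 and 2247 normalized counts in Ncoa6-sufficient and at 1633 and 1158 in Ncoa6-KO libraries. With LPS + MSU it reached 19980 and 19947 in Ncoa6-sufficient and 18487 and 16840 in Ncoa6-KO libraries. The stimulated libraries of both genotypes lay far above the others, and within each condition both Ncoa6-KO libraries lay below both Ncoa6-sufficient ones. Stimulation raised it 8.58-fold in Ncoa6-sufficient BMDMs (log2 3.10 ± 0.155, SE, adjusted p = 2.33e-08 by edgeR's quasi-likelihood test) and 12.6-fold in Ncoa6-KO BMDMs (log2 3.66 ± 0.159, adjusted p = 8.80e-09).

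*Dtx3l*, the E3 ubiquitin ligase that pairs with PARP9, was at 1656 and 1396 normalized counts in Ncoa6-sufficient and 1239 and 843 in Ncoa6-KO libraries with medium alone. With LPS + MSU the counts were 11665 and 9201 in Ncoa6-sufficient and 9732 and 9293 in Ncoa6-KO libraries. The genotypes were apart with medium alone and overlapped with LPS + MSU. Its rise was 6.83-fold in Ncoa6-sufficient (log2 2.77 ± 0.183, edgeR adjusted p = 1.99e-07) and 9.12-fold in Ncoa6-KO BMDMs (log2 3.19 ± 0.187, edgeR adjusted p = 8.09e-08). The ratio of *Parp9* to *Dtx3l* counts was 1.32 to 1.61 over the 4 libraries with medium alone and 1.71 to 2.17 over the 4 with LPS + MSU.

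*Parp14*, a large mono-ADP-ribosyltransferase with macrodomains known from STAT6 and interferon responses, showed the widest range. With medium alone it was at 8417 and 7455 normalized counts in Ncoa6-sufficient and 5820 and 3698 in Ncoa6-KO libraries. With LPS + MSU it was at 122703 and 124921 in Ncoa6-sufficient and 122356 and 119654 in Ncoa6-KO libraries. The Ncoa6-KO libraries with medium alone were the lowest and, on the log2 scale, also the furthest apart, whereas the 4 stimulated libraries were close together on that scale. The rise was 15.6-fold in Ncoa6-sufficient (log2 3.96 ± 0.204, edgeR adjusted p = 2.94e-08) and 25.4-fold in Ncoa6-KO BMDMs (log2 4.67 ± 0.211, edgeR adjusted p = 1.16e-08). *Parp14* took 0.320% to 0.338% of all counts in the stimulated libraries, where it ranked 30 to 33 among all genes by count, against ranks 385 to 1009 with medium alone. Its share of the counts of the 8 members was 27.3% to 37.8% with medium alone and 61.7% to 65.8% with LPS + MSU. These ranks and shares were not scaled for length, and *Parp14* has 9.306 kb of annotated exon, the most of the 8.

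*Parp10*, a mono-ADP-ribosyltransferase, was at 1191 and 1200 normalized counts in Ncoa6-sufficient and 925 and 739 in Ncoa6-KO libraries with medium alone. It was at 10614 and 10845 with LPS + MSU in Ncoa6-sufficient libraries and at 10115 and 10281 in Ncoa6-KO libraries. The genotypes did not overlap under either condition, though the stimulated libraries were close. The rise was 8.97-fold (log2 3.17 ± 0.119, edgeR adjusted p = 3.11e-09) in Ncoa6-sufficient and 12.2-fold (log2 3.61 ± 0.122, edgeR adjusted p = 1.52e-09) in Ncoa6-KO BMDMs.

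*Parp12*, a zinc finger member known to restrict viruses, was at 2736 and 2382 normalized counts in Ncoa6-sufficient and 1900 and 1462 in Ncoa6-KO libraries with medium alone. With LPS + MSU it was at 21355 and 18355 against 16599 and 15631. Both Ncoa6-KO libraries were the lower ones in each condition. Stimulation raised it 7.76-fold (log2 2.96 ± 0.149, edgeR adjusted p = 2.46e-08) in Ncoa6-sufficient and 9.58-fold (log2 3.26 ± 0.151, edgeR adjusted p = 1.40e-08) in Ncoa6-KO BMDMs.

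*Parp11*, another mono-ADP-ribosyltransferase and the gene with the interferon-stimulated response element match shown above, was the least abundant of the 8 per kb of exon with medium alone. It was at 546 and 457 normalized counts in Ncoa6-sufficient and 439 and 352 in Ncoa6-KO libraries. The counts with LPS + MSU were 5269 and 4333 in Ncoa6-sufficient and 4190 and 3790 in Ncoa6-KO libraries. Again both Ncoa6-KO libraries were the lower ones in each condition, by a margin smaller than the gap between the Ncoa6-sufficient libraries. The rise was 9.56-fold (log2 3.26 ± 0.147, edgeR adjusted p = 1.15e-08) in Ncoa6-sufficient and 10.1-fold (log2 3.33 ± 0.149, edgeR adjusted p = 1.05e-08) in Ncoa6-KO BMDMs.

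*Tiparp*, a target of the aryl hydrocarbon receptor that ADP-ribosylates that receptor in turn, was at 511 and 521 normalized counts in Ncoa6-sufficient and 587 and 558 in Ncoa6-KO libraries with medium alone. It was at 5082 and 4620 with LPS + MSU in Ncoa6-sufficient libraries and at 3968 and 4035 in Ncoa6-KO libraries. Here the Ncoa6-KO libraries were the higher ones with medium alone and the lower ones with LPS + MSU, with no overlap in either condition. It rose 9.40-fold (log2 3.23 ± 0.0966, edgeR adjusted p = 8.96e-10) in Ncoa6-sufficient and 6.98-fold (log2 2.80 ± 0.0949, edgeR adjusted p = 1.53e-09) in Ncoa6-KO BMDMs. *Tiparp* shares 223 exonic bp with a pseudogene on the opposite strand.

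*Parp1*, the DNA repair enzyme, went the other way. It was at 4791 and 4468 normalized counts in Ncoa6-sufficient and 4326 and 4713 in Ncoa6-KO libraries with medium alone. With LPS + MSU it was at 2311 and 2493 in Ncoa6-sufficient and 2215 and 2387 in Ncoa6-KO libraries. The genotypes overlapped in both conditions, and all 4 stimulated libraries lay below all 4 others. It fell to 51.9% in Ncoa6-sufficient (log2 -0.95 ± 0.0962, edgeR adjusted p = 6.88e-06) and to 50.9% in Ncoa6-KO BMDMs (log2 -0.97 ± 0.0963, edgeR adjusted p = 6.03e-06).

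Per kb of exon, the order of levels with LPS + MSU was the same in both genotypes, from *Parp14* (13305 mean normalized counts per kb in Ncoa6-sufficient BMDMs, 13003 in Ncoa6-KO BMDMs) through *Parp12*, *Parp9*, *Parp10*, *Dtx3l*, *Tiparp* and *Parp11* to *Parp1* (454 and 435). No neighbours in that order overlapped within a genotype. With medium alone *Parp1* came first, at 875 ± 43.2 normalized counts per kb (SD, n = 2) in Ncoa6-sufficient BMDMs, where its libraries overlapped those of *Parp14* (853 ± 73.1), and at 854 ± 51.7 in Ncoa6-KO BMDMs, where they did not (511 ± 161 for *Parp14*). *Parp11* came last, at 71.4 ± 9.02 and 56.3 ± 8.71 normalized counts per kb. *Parp10* and *Dtx3l* overlapped with medium alone in both genotypes, and so did *Parp14* and *Parp12* in Ncoa6-KO BMDMs.

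With medium alone, *Parp9* and *Parp10* were called lower in Ncoa6-KO BMDMs, 2 of the 8 genes where 1.30% of all genes were called lower and 1.88% in either direction. *Parp9* fell to 60.1% of the Ncoa6-sufficient level (log2 -0.74 ± 0.146, SE, 95% confidence interval -1.06 to -0.41, edgeR adjusted p = 0.0337), and *Parp10* to 69.7% (log2 -0.52 ± 0.113, -0.77 to -0.27, edgeR adjusted p = 0.0464). The differences for *Parp12* (log2 -0.61 ± 0.140, edgeR adjusted p = 0.0589), *Parp14* (-0.74 ± 0.183, 0.0793), *Dtx3l* (-0.55 ± 0.175, 0.177) and *Parp11* (-0.34 ± 0.144, 0.342) did not pass the test. Those of *Tiparp* (0.15 ± 0.0934, edgeR adjusted p = 0.578) and *Parp1* (-0.04 ± 0.0943, 0.939) did not pass either, and their 95% intervals, -0.06 to 0.36 and -0.24 to 0.17, contain 0. Both Ncoa6-KO libraries lay below both Ncoa6-sufficient libraries for 6 of the 8, *Parp9*, *Parp10*, *Parp11*, *Parp12*, *Parp14* and *Dtx3l*, a pattern that 24.5% of all genes showed. DESeq2 and limma-voom also called *Parp12* and *Parp14* lower, whereas *Parp9* alone was called with DESeq2's size factors, with edgeR's filterByExpr or with only the 4 libraries compared. The median difference over the 8 was -0.54, against -0.03 over all genes tested.

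**Figure D2:**
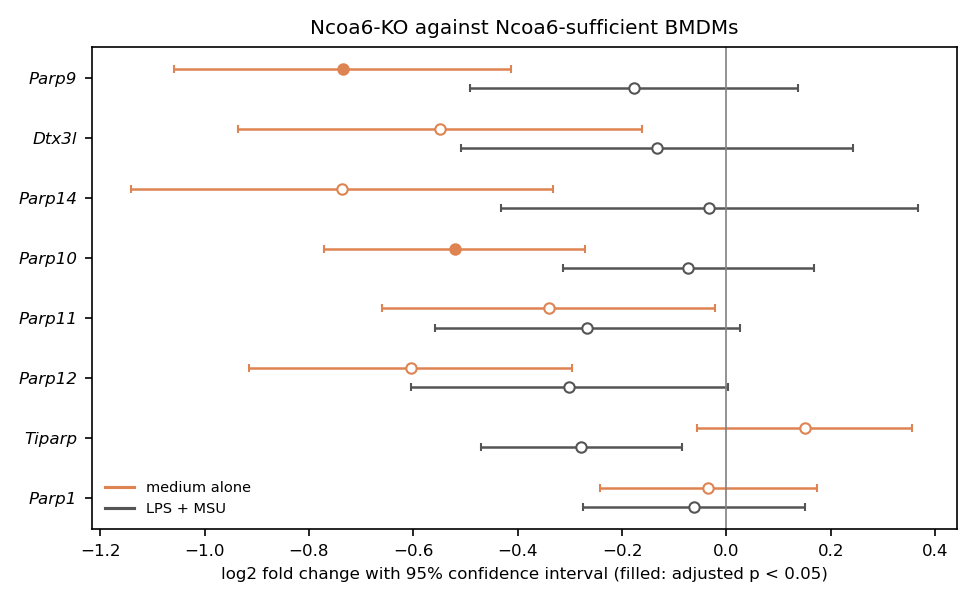
Log2 fold change of Ncoa6-KO against Ncoa6-sufficient BMDMs for the 8 genes (x axis) with medium alone (orange) and with LPS + MSU (grey); bars are 95% confidence intervals and filled points passed the adjusted p of 0.05. *Parp9* and *Parp10* with medium alone are the filled points; with LPS + MSU all 8 points lie between -0.30 and -0.03 and are open.

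Among Ncoa6-sufficient libraries with medium alone, the log2 difference of replicate 2 from replicate 1 was -0.26 for *Parp11* and -0.25 for *Dtx3l*. It was -0.20 for *Parp12*, -0.175 for *Parp14*, -0.099 for *Parp9* and 0.011 for *Parp10*. The 2 Ncoa6-KO libraries with medium alone differed more from each other in these genes. Replicate 2 was lower than replicate 1 by 0.65 on the log2 scale for *Parp14*, by 0.56 for *Dtx3l*, by 0.49 for *Parp9*, by 0.38 for *Parp12*, by 0.32 for *Parp10* and by 0.32 for *Parp11*. Without that replicate, none of the 8 was called, and the difference was -0.51 for *Parp9* (edgeR adjusted p = 0.113), -0.37 for *Parp10* (0.200) and -0.45 for *Parp14* (0.231). Without replicate 1 of the same group 5 were called lower, with -1.01 for *Parp9* (edgeR adjusted p = 0.00330), -1.10 for *Parp14* (0.00419), -0.86 for *Dtx3l* (0.0261), -0.81 for *Parp12* (0.0178) and -0.69 for *Parp10* (0.0117). Leaving out any 1 of the other 6 libraries also left no call, with log2 differences of -0.78 to -0.69 for *Parp9* and edgeR adjusted p-values of 0.0556 to 0.323. The 6 genes kept a negative difference in each of these fits.

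**Figure D3:**
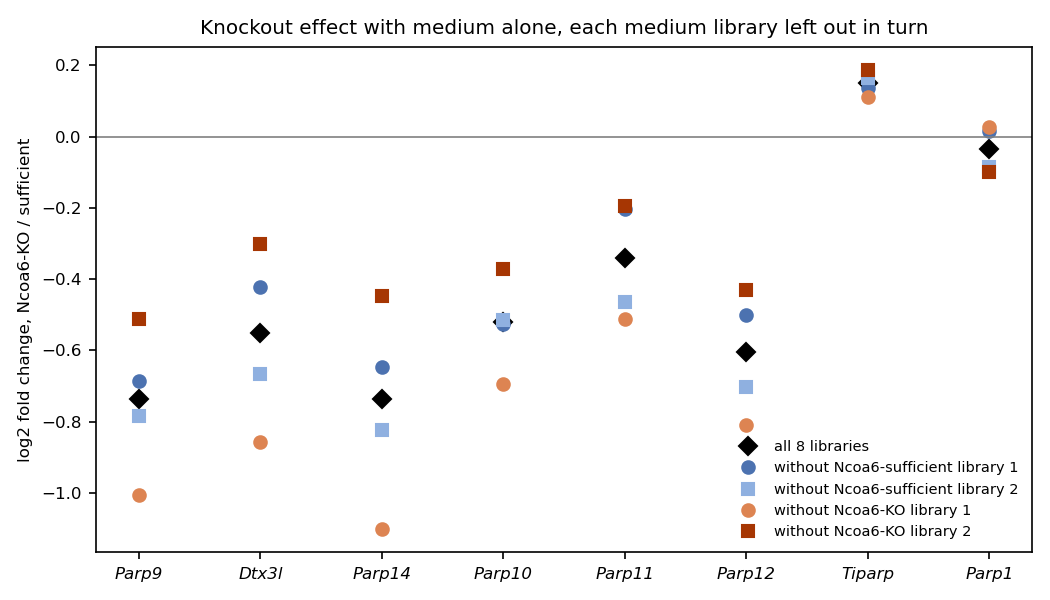
Log2 fold change of Ncoa6-KO against Ncoa6-sufficient BMDMs with medium alone (y axis) for the 8 genes, with all 8 libraries (diamonds) and with each library of that condition left out in turn (circles and squares). The values of *Parp14* run from -1.10 without Ncoa6-KO library 1 to -0.45 without Ncoa6-KO library 2, and *Tiparp* stays above 0 in every fit drawn.

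With LPS + MSU none of the 8 was called between genotypes by edgeR's quasi-likelihood test, 1 had an unadjusted p under 0.05 and DESeq2 called none, where 1.63% of all genes were called lower and 3.59% in either direction. An unadjusted edgeR p under 0.05 was found for 3062 of all 17625 genes. All 8 differences were below 0, from -0.30 for *Parp12* (edgeR adjusted p = 0.292) to -0.03 for *Parp14* (0.956), with a median of -0.15 against 3.92e-04 over all genes. The smallest adjusted p belonged to *Tiparp* (log2 -0.28 ± 0.0873, unadjusted p = 0.00894, adjusted p = 0.120 by edgeR). Both Ncoa6-KO libraries lay below both Ncoa6-sufficient ones for *Parp9*, *Parp10*, *Parp11*, *Parp12*, *Parp14* and *Tiparp*, 6 of the 8, a pattern found for 22.7% of all genes. For *Parp14* the 95% interval of -0.43 to 0.37 leaves room for a difference in either direction.

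Whether the knockout difference changed with stimulation was tested by the interaction, which is also the difference in the response to LPS + MSU between genotypes. No gene of the 17625 was called, a share of 0%, by edgeR's quasi-likelihood test, with 1045 genes at an unadjusted p under 0.05 and 43 called by DESeq2. Of the 8, 4 had an unadjusted p under 0.05. The response was larger in Ncoa6-KO BMDMs by 0.70 ± 0.257 on the log2 scale for *Parp14* (edgeR adjusted p = 0.731), by 0.56 ± 0.204 for *Parp9* (0.731) and by 0.45 ± 0.157 for *Parp10* (0.721). Leaving out 1 library moved these values to between 0.41 and 1.07 for *Parp14*, 0.33 and 0.83 for *Parp9* and 0.30 and 0.62 for *Parp10*. The lower end came without replicate 2 and the upper end without replicate 1 of the Ncoa6-KO libraries with medium alone, and none was called in these fits (edgeR adjusted p of at least 0.0621). For *Tiparp* it was smaller, at -0.43 ± 0.128 (edgeR unadjusted p = 0.00668, adjusted p = 0.582). The fits without 1 library gave -0.54 to -0.39 for *Tiparp*. *Dtx3l* (0.42), *Parp12* (0.30), *Parp11* (0.07) and *Parp1* (-0.03) had unadjusted edgeR p-values of 0.117 to 0.846. The knockout differences, the responses and the interaction share the same libraries and are not independent of each other. These fits did not use the replicate numbers, which nothing in the labels ties to mice. A replicate block within each genotype, chosen after seeing the data, called *Parp9*, *Parp10* and *Parp14* higher and *Tiparp* lower in the interaction.

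The other 9 tested genes of the PARP family gave a mixed response to LPS + MSU. In Ncoa6-sufficient BMDMs 5 rose and 2 fell, where 24.7% and 30.5% of all genes did, with a median of 0.73 over the 9. *Parp8* rose most, by 2.93 on the log2 scale (edgeR adjusted p = 9.03e-09), from 553 and 592 to 4349 and 4399 normalized counts. *Zc3hav1*, the zinc finger antiviral protein also called PARP13, rose by 1.74 (edgeR adjusted p = 9.90e-08), *Parp4* by 1.65 (3.22e-07) and *Parp3*, a DNA repair member, by 1.46 (7.43e-08). Those that fell were *Parp16*, of the endoplasmic reticulum, at -2.62 (edgeR adjusted p = 1.27e-05), and *Parp2*, the close relative of *Parp1* in DNA repair, at -0.60 (2.17e-04). In Ncoa6-KO BMDMs 5 rose and 3 fell, the third being *Parp6* (-0.44, edgeR adjusted p = 0.0147).

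**Figure D4:**
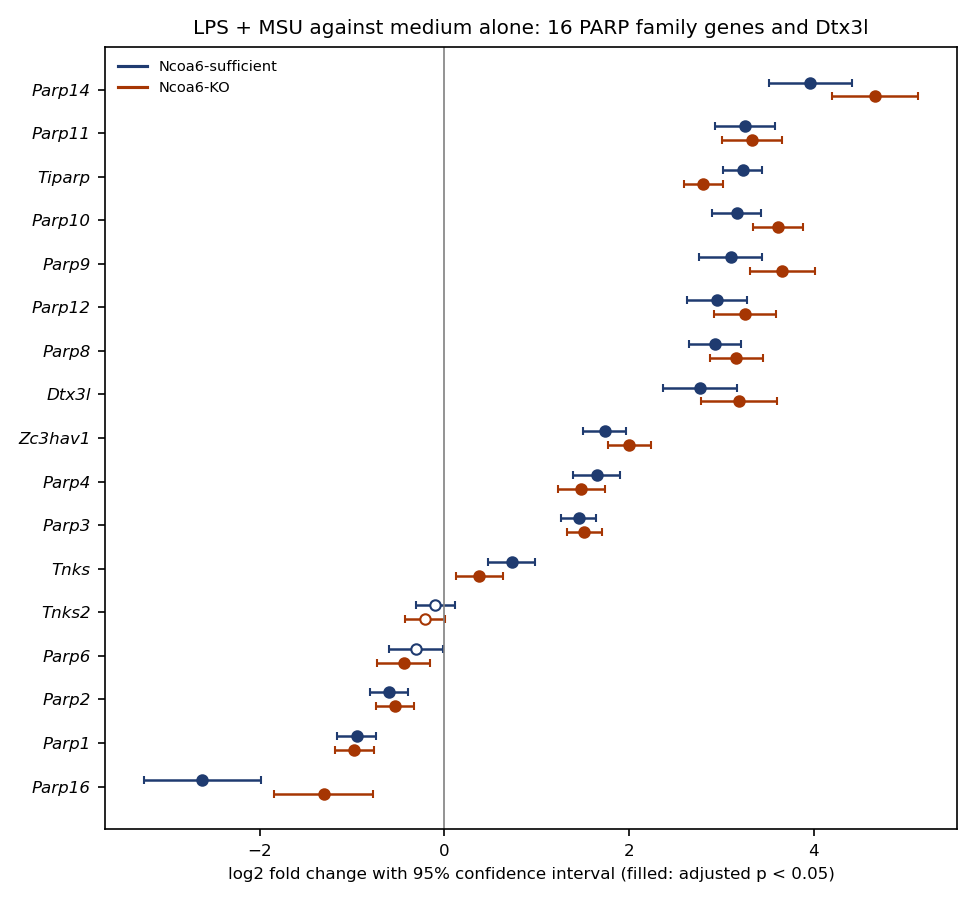
Log2 fold change of LPS + MSU against medium alone (x axis) for the 16 PARP family genes and *Dtx3l* in Ncoa6-sufficient (blue) and Ncoa6-KO (red) BMDMs; bars are 95% confidence intervals and filled points passed the adjusted p of 0.05. The 7 members that rose and *Parp8* lie between 2.77 and 4.67, apart from the other genes that rose, which reach at most 2.00.

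Between genotypes, none of those 9 genes was called with medium alone by edgeR, and their median was -0.03. An unadjusted edgeR p under 0.05 was found for 2 of them and for 2262 of all 17625 genes. With LPS + MSU *Parp16* was higher in Ncoa6-KO BMDMs, by 1.35 ± 0.326 on the log2 scale (edgeR adjusted p = 0.0489), on 11 and 12 counts in Ncoa6-sufficient and 26 and 34 in Ncoa6-KO libraries. Among the other 4 genes of the deltex family of ubiquitin ligases, to which *Dtx3l* belongs, *Dtx2* was lower (-1.09, edgeR adjusted p = 0.00779) and *Dtx4* higher (0.82, 0.00945) in Ncoa6-KO BMDMs with LPS + MSU, and none was called with medium alone. *Dtx2* was at 2139 and 1493 normalized counts against 964 and 737, and *Dtx4* at 744 and 846 against 1208 and 1602. Neither gene overlapped between genotypes. Of all genes, 3.59% were called in either direction with LPS + MSU. Both Ncoa6-KO libraries lay below both Ncoa6-sufficient ones, as for *Dtx2*, for 22.7% of all genes. The share with both above, as for *Dtx4*, was not counted.

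The interferon pathway above these genes was described by 16 genes, from *Ifnb1* and the receptor chains to the kinases, transcription factors and the feedback inhibitors *Usp18* and *Socs1*. With medium alone 3 of the 16 were called lower in Ncoa6-KO BMDMs and none higher, where 1.30% of all genes were called lower, with a median of -0.26. *Irf7*, a transcription factor that amplifies interferon induction, fell by 1.53 on the log2 scale (edgeR adjusted p = 0.00568), *Usp18* by 0.90 (0.0250) and *Stat2* by 0.72 (0.0464). As for the PARP genes, the second Ncoa6-KO library was the lower one for these 3, with *Irf7* at 1101 and 680 and *Stat2* at 2934 and 1968. The second Ncoa6-sufficient library with medium alone was also the lower one, with *Irf7* at 2857 and 2281. There *Stat2* was at 4150 and 3951 and *Usp18* at 710 and 642. With LPS + MSU none of the 16 was called between genotypes by edgeR, and the values were -0.39 for *Irf7*, -0.36 for *Usp18* and -0.14 for *Stat2*. The largest difference of the 16 was that of *Ifnb1*, at -0.70 (edgeR adjusted p = 0.0867), and 3 of the 16 were above 0. An unadjusted edgeR p under 0.05 was found for 5 of the 16 and for 3062 of all 17625 genes. LPS + MSU raised 14 of the 16 and lowered 2 in each genotype, where 24.7% of all genes rose and 30.5% fell in Ncoa6-sufficient and 25.2% and 27.9% did in Ncoa6-KO BMDMs. The largest changes in Ncoa6-sufficient BMDMs were increases of 8.31 for *Ifnb1*, 5.43 for *Socs1*, 5.26 for *Usp18* and 4.40 for the kinase gene *Jak2*.

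Genes that act on either side of ADP-ribosylation were not called between genotypes by edgeR in either condition, which held for 8 erasers of ADP-ribose, 9 tested genes of NAD supply and use and 10 partners of PARP1 in DNA repair. At an unadjusted p under 0.05 there were 0, 2 and 1 of them without stimulation, and 1, 3 and 4 with it. Of all 17625 genes, 2262 had such an edgeR p without stimulation and 3062 with it. With LPS + MSU against medium alone in Ncoa6-sufficient BMDMs, 24.7% of all genes rose and 30.5% fell. Of the 8 erasers 1 rose, *Adprh* (0.88, edgeR adjusted p = 4.75e-05), and 5 fell, with the largest changes in *Macrod2* (-1.67, 0.0269), *Adprhl2* (-0.78, 1.10e-04) and *Oard1* (-0.77, 8.78e-04). Of the 9 NAD genes 3 rose and 5 fell. *Nampt*, the rate-limiting enzyme of NAD salvage, rose by 2.73 (edgeR adjusted p = 1.65e-08) and the NAD-consuming *Cd38* by 3.70 (1.72e-05), while *Sarm1*, another NAD consumer, was at -1.97 (0.0326) and *Naprt* at -1.35 (5.31e-04). Of the 10 repair partners 2 rose and 8 fell, with the largest changes in *Aplf* (-1.40, edgeR adjusted p = 7.87e-05), *Chd1l* (-1.27, 2.47e-05), *Apex1* (-1.13, 4.15e-05) and the scaffold *Xrcc1* (-1.12, 1.30e-05). For the aryl hydrocarbon receptor pathway, of which *Tiparp* is a target, 6 of 8 genes were tested and none was called between genotypes by edgeR, with 1 and 2 at an unadjusted p under 0.05. *Ahr* rose by 2.33 in Ncoa6-sufficient BMDMs (edgeR adjusted p = 9.64e-07) and the receptor's repressor *Ahrr* fell by 1.13 (0.00544). The classical targets *Cyp1a1* and *Cyp1a2* had 1 and 0 counts over the 8 libraries.

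Around the chromosome 16 genes, the response to LPS + MSU did not stop at the members on 1 side. *Hspbap1*, 4.4 kb from *Parp14*, rose by 1.93 on the log2 scale in Ncoa6-sufficient BMDMs (edgeR adjusted p = 1.93e-06), whereas *Kpna1*, 6.1 kb from *Parp9*, differed by 0.10 (0.525). Neither was called between genotypes with medium alone, at -0.09 for *Hspbap1* (edgeR adjusted p = 0.901) and 0.22 for *Kpna1* (0.487). Taking the 3 nearest tested protein-coding genes on each side of each of the 8 members gave 36 neighbours, of which edgeR called none between genotypes with medium alone and 1 with LPS + MSU (*Rab19*, near *Parp12*, at -0.82, edgeR adjusted p = 0.0329). With LPS + MSU against medium alone 15 of the 36 rose and 7 fell in Ncoa6-sufficient BMDMs, where 24.7% and 30.5% of all genes did.

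**Figure D5:**
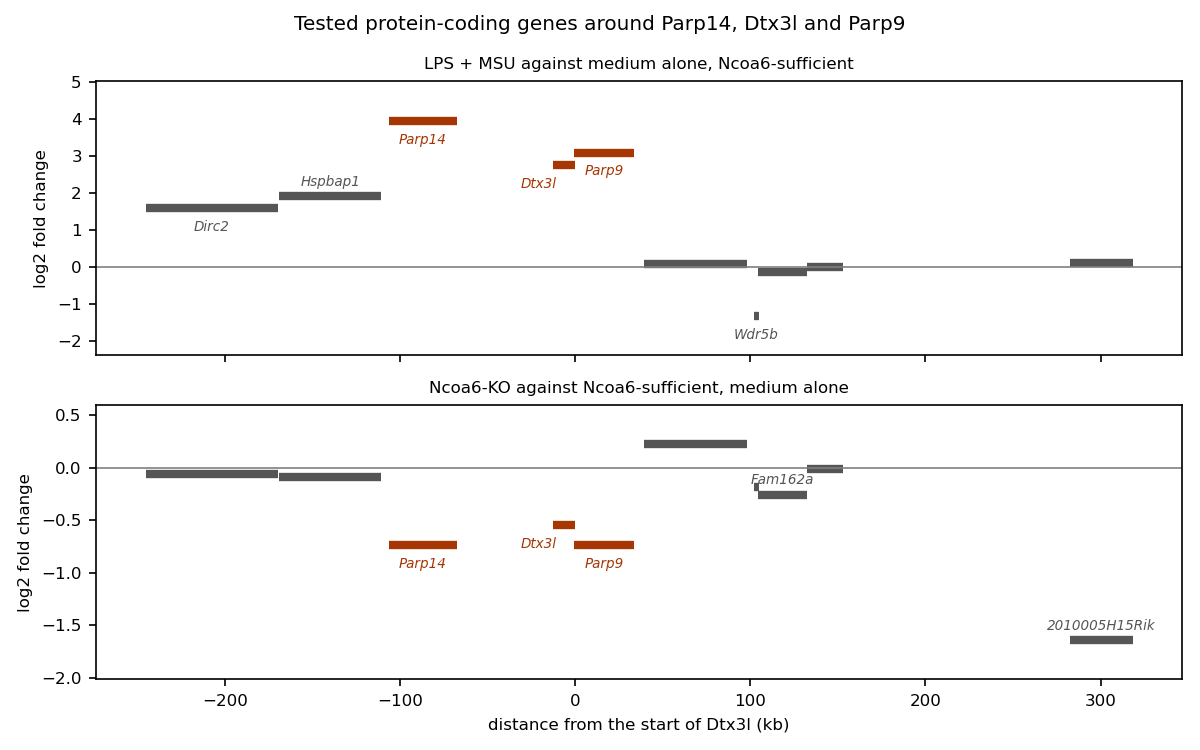
Log2 fold change (y axis) of the tested protein-coding genes within 400 kb of *Dtx3l* against distance from its start in kb; bars span the genes and members are red. Above, LPS + MSU against medium alone in Ncoa6-sufficient BMDMs, with the 3 members between 2.77 and 3.96; below, Ncoa6-KO against Ncoa6-sufficient BMDMs with medium alone, where *Parp9*, at -0.74, was the 1 gene drawn that passed the adjusted p of 0.05.

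The genes whose profiles over the 8 libraries were most like each member were found among 11211 genes whose mean normalized count was 50 or more. Likeness was the root mean square difference of log2 levels after each gene was centred. The 4 stimulated and the 4 other libraries entered together. *Parp9* was nearest to *Uba7*, the activating enzyme for the ubiquitin-like modifier ISG15 (0.0554), then *Rnf213* (0.0954) and *Tor3a* (0.0999). *Parp10* was also nearest to *Uba7* (0.0951), then *Sp110* (0.103) and *Casp4* (0.106). *Parp14* was nearest to *Ddx60* (0.105), *Daxx* (0.138) and *Slfn8* (0.141), and *Dtx3l* to *Slfn2* (0.0774), *Mov10* (0.103) and *Psmb10* (0.108). The genes nearest to *Parp12* were *Trim30a* (0.0721), *Psmb10* (0.0757) and *H2-T22* (0.0876), and those nearest to *Parp11* were *H2-T22* (0.0670), *Samhd1* (0.0819) and *Stk40* (0.0888). *Tiparp* was nearest to *Fndc3a* (0.0520), *Etnk1* (0.0869) and *Adgrg6* (0.0945), and *Parp1* to *Naa50* (0.0458), *Paxip1* (0.0518) and *Ubtf* (0.0599). Between members the smallest differences were those of *Parp12* with *Dtx3l* (0.104) and *Parp9* with *Parp10* (0.110), while *Parp14* differed by 0.478 to 0.757 from the other genes that rose.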

How the data were processed

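RNA from 8 BMDM cultures was sequenced as stranded poly(A) paired-end libraries. Per the labels, the authors aligned reads to GRCm38 with STAR 2.7.3a and deposited expected counts per gene from RSEM 1.3.3, not normalized. These were rounded, and genes with fewer than 10 counts over the 8 libraries were dropped, leaving 17625 of 50615. Counts were normalized by TMM and tested with edgeR 4.0.16 (quasi-likelihood) in R 4.3.3 in 1 fit of 4 groups with 4 residual degrees of freedom. P-values were Benjamini-Hochberg adjusted over all genes tested. SE is the log2 fold change divided by the square root of F. The depth of 25281955 to 33673552 counts gave each member at least 401 counts per library. With 2 libraries per group, an exact permutation test cannot go below p = 0.333. P-values rest on the spread between libraries within a group, which came from different mice, taken over the 4 groups together. Whether the medium and LPS + MSU cultures of a genotype came from the same mice is not given.

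Members, lists and tests were chosen with earlier results of these data known. Named genes were all members, the called genes of each list (at most 4 of largest change), neighbours and the 3 nearest profiles. *Parp2*, *Parp3*, *Parp6*, *Cyp1a1* and *Cyp1a2* were named after their values were seen. Positions are from GENCODE vM21 (GRCm38) and promoter windows from RefSeq (GRCm38.p6). Scripts were checked on simulated data. DESeq2 1.42.0, limma-voom 3.58.1, other filters and scalings, a replicate block, fits to 4 libraries and left-out libraries were alternatives.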

Additional observations from a re-analysis of the deposited data

Results flagged for a closer look

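*Tiparp* stood out because both Ncoa6-KO libraries lay above both Ncoa6-sufficient libraries with medium alone and below both with LPS + MSU. The knockout difference with LPS + MSU minus that with medium alone was -0.43 on the log2 scale, and the test of that difference itself gave an adjusted p = 0.582 by edgeR's quasi-likelihood test over all genes. A replicate block within each genotype, chosen after seeing the data, did call *Tiparp* lower in that test. No other member went opposite ways in all libraries. Both Ncoa6-KO libraries lay below both Ncoa6-sufficient ones with LPS + MSU for 22.7% of all genes. The share of all genes that went opposite ways was not counted, so the pattern cannot be called particular to *Tiparp*.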

How the results depend on the processing

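In every setting tried, 7 members were called higher and *Parp1* lower with LPS + MSU in both genotypes. With medium alone the number of members called lower in Ncoa6-KO BMDMs, 2, became 4 by DESeq2 and by limma-voom, 1 with DESeq2 size factors, with filterByExpr and with only the 4 libraries compared, and 5 with no filter. *Parp9* was among the calls in all of these. Leaving out 1 library gave 0 to 5 members, 8 to 110 genes higher and 14 to 293 lower. Of all genes with medium alone, DESeq2 called 358 lower, and no filter gave 391 higher and 761 lower. *Parp1* turned to 0.0029 on the log2 scale with only 4 libraries, and ran from -0.098 to 0.026 with 1 library left out.

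With LPS + MSU DESeq2 called 503 genes lower between genotypes, no filter 807 higher and 804 lower, limma-voom 215 higher, and only the 4 libraries 72 higher and 67 lower. With 1 library left out it was 29 to 394 higher and 21 to 367 lower, and *Dtx3l* ran from -0.30 to 0.039. For the interaction DESeq2 called 32 genes higher and 11 lower, and no filter 195 and 74, with 1 member (*Parp14*, adjusted p = 0.00901 by edgeR). With 1 library left out it was 0 to 19 and 0 to 4, with *Parp11* from -0.11 to 0.25 and *Parp1* from -0.13 to 0.036. The cause of these shifts was not tested.

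Replicate numbers are shared between groups, but nothing in the labels pairs the mice. Only groups of the same genotype can share a mouse. Over 11219 genes, deviations of same-numbered libraries from their group means correlated at 0.257 between the Ncoa6-sufficient groups and 0.334 between the Ncoa6-KO groups. Between groups of different genotype, which cannot share a mouse, the correlations were lower, at 0.0333 to 0.188. Whether same-numbered libraries of a genotype came from the same mouse is not known. A replicate block across all groups called 6 members lower with medium alone (331 genes higher and 692 lower), 1 member, *Tiparp*, lower with LPS + MSU (750 and 782), and 72 and 14 genes in the interaction. A replicate block within each genotype, chosen after seeing the data, called 308 genes higher and 136 lower in the interaction, with 3 members higher (*Parp9*, *Parp10* and *Parp14*) and 1 lower (*Tiparp*). DESeq2 size factors moved the median of all genes for stimulation in Ncoa6-sufficient BMDMs from -0.116 to -0.0045. With 2 libraries per group, the knockout comparisons rest on a spread estimated from few libraries.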
